A study of Drosophila melanogaster with 8 samples.

Results

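The pericentric regions described here are the stretches of 2L, 3L, X and 3R that lie against the centromeres and in which an anti-GFP antibody gave peaks in *Drosophila melanogaster* wing imaginal discs. Peaks of 8 lists were merged wherever they shared at least 1 bp. A merged region was kept if it started above position 22000000 on 2L, above 23000000 on 3L or above 21500000 on X, or if it ended below 4200000 on 3R (build dm6, which is Release 6). The rule uses position only and no measured value. It kept 1698 regions, which are 18.7% of the 9086 merged regions on the arms 2L, 2R, 3L, 3R, 4 and X and 15.6% of the 10879 merged regions in all. The 3L window held 637 of them, the 3R window 538, the X window 348 and the 2L window 175.

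Pericentric DNA is packed as constitutive heterochromatin, which carries methylated histone H3 lysine 9 and HP1 and is rich in transposable elements and satellite repeats. Its protein-coding genes are few, and many are long because their introns are filled with repeats. Zelda is a zinc-finger pioneer transcription factor, known for opening chromatin at enhancers and promoters when the zygotic genome is first transcribed in the embryo. CUT&RUN uses an antibody to bring a nuclease to its target, and sequences the DNA cut free, so a peak is a place where the cut fragments pile up above the local expected coverage.

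The tagged animals were larvae with GFP on Zelda at its endogenous locus, and the control animals were w1118 larvae without any GFP, treated with the same antibody (wild type below). Wing discs of each genotype were taken from normally developing larvae (undamaged) or 2 days after damage during regeneration (damaged), with 2 libraries for each of the 4 combinations. How the damage was made, the larval age and the number of discs per library are not given in the sources used here. Because the wild-type libraries hold no GFP, a region called in them was called without the tagged protein. Nothing in the lists allows the tissue to be checked against marker genes. The lists held 2663 to 4946 peaks each. A background coverage recovered from the authors' columns, the lowest expected coverage in a list, ran from 32.6 to 52.3 fragments per base and stands in for depth.

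Peaks were dense in all 4 windows, and in every library. The merged regions numbered 115.6 per Mb in the 2L window, 124.7 in the 3L window, 128.1 in the 3R window and 170.7 in the X window. The remainder of the same arms held 59.9, 61.3, 63.8 and 34.5 regions per Mb, in that order. The change was steep at the X bound, with 110 regions in the 500 kb inside it and 11 in the 500 kb outside it. The same counts were 68 and 50 on 2L, 51 and 31 on 3L, and 60 and 34 on 3R. Pericentric regions had a median width of 574.5 bp, against 451 bp elsewhere on the arms, but not among regions called by equal numbers of libraries. There the medians were 340 bp against 340 bp for 1 library, 712 against 754 bp for 2 to 7, and 1428 against 1897 bp for 8.

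The number of pericentric regions did not differ between wild-type and Zelda-GFP discs beyond the spread of the libraries. A region counts as called in each library with a peak inside it. In the undamaged wild type, 644 pericentric regions were called in replicate 1 and 963 in replicate 2. In the damaged wild type the numbers were 740 and 624. In undamaged Zelda-GFP they were 830 and 552, and in damaged Zelda-GFP 617 and 542. The genotypes overlapped over both conditions, and within undamaged discs. Both damaged Zelda-GFP libraries lay below all 4 wild-type libraries. Within damaged discs the difference between genotypes was -102.5, at the smallest p that an exact permutation test of 2 libraries against 2 can give (0.333), and within undamaged discs it was -112.5 (exact permutation p = 0.667). The mean was 635.25 ± 134 (SD, n = 4) in Zelda-GFP and 742.75 ± 155 (SD, n = 4) in wild type. The difference of -107.5 was within the spread (exact two-sided permutation test over libraries, p = 0.314, Benjamini-Hochberg adjusted p = 0.4 over 4 tests). It was -34.1 without undamaged wild-type replicate 2 and -172 without undamaged Zelda-GFP replicate 1.

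Damage did not shift the number of pericentric regions beyond the spread either. Damaged discs gave 630.75 ± 81.7 regions (SD, n = 4) and undamaged discs 747.25 ± 185 (SD, n = 4), a difference of -116.5 (p = 0.257 in the same exact permutation test and 0.4 after adjustment). It was -44.6 without undamaged wild-type replicate 2 and -182 without undamaged Zelda-GFP replicate 2. Within wild type the difference between damaged and undamaged discs was -121.5, and within Zelda-GFP it was -111.5. Both had an exact permutation p of 0.667.

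The share of a library's arm regions that were pericentric was lowest in the libraries that called most regions outside the windows. Regions outside the windows enter the divisor of the share, so this relation is partly fixed by its definition. This share was 42.9% and 32.0% in the undamaged wild-type libraries, 35.7% and 18.1% in the damaged wild-type libraries, 31.2% and 38.4% in the undamaged Zelda-GFP libraries, and 18.4% and 15.2% in the damaged Zelda-GFP libraries. The 3 lowest shares were in damaged libraries, and damaged wild-type replicate 1 stood among the undamaged ones. Those 3 libraries called 2741 to 3016 regions outside the windows, while the other 5 called 857 to 2044. Damaged discs had a share of 21.9 ± 9.35% and undamaged discs 36.1 ± 5.55% (SD, n = 4 each). The difference of -14.3 percentage points did not pass the test (exact permutation p = 0.0857, and 0.343 after adjustment). Without damaged wild-type replicate 1 it was -18.9 percentage points (exact permutation p = 0.0286 before adjustment, the smallest that test can give). With any other single library left out, the exact permutation p was 0.0857 to 0.114. By genotype, the share was 25.8 ± 10.9% in Zelda-GFP and 32.2 ± 10.4% in wild type (SD, n = 4 each), a difference of -6.38 percentage points (exact permutation p = 0.4 before and after adjustment).

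**Figure D1:**
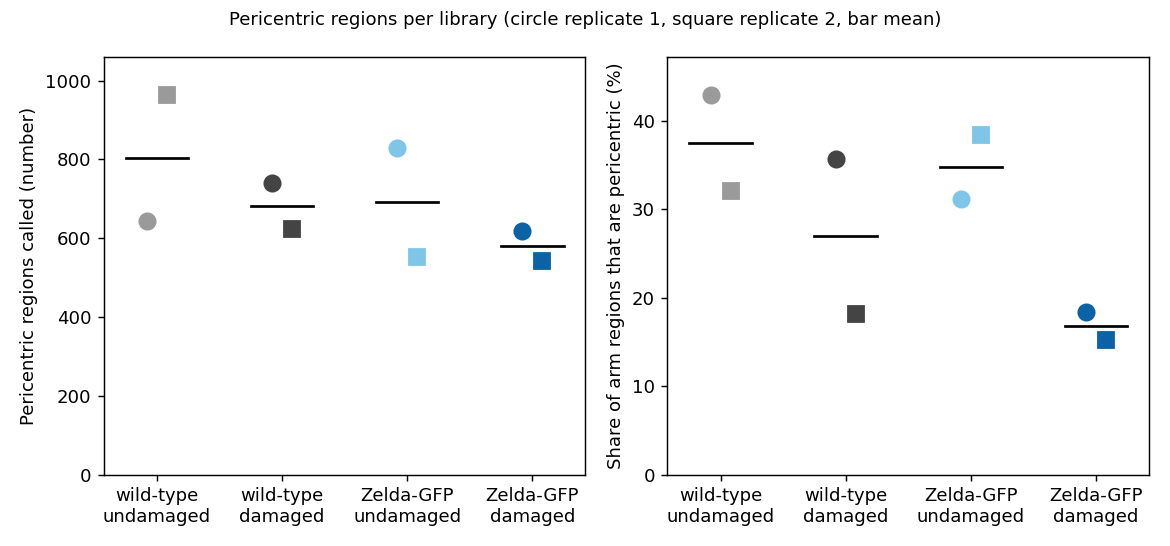
Number of pericentric regions called (left) and share of the library's arm regions that are pericentric, in percent (right), for each library, by genotype and condition; circles are replicate 1, squares replicate 2 and bars the mean of 2 libraries. The numbers in both damaged Zelda-GFP libraries (542 and 617) lie below those in all 4 wild-type libraries (624 to 963), and the shares of both damaged Zelda-GFP libraries and of damaged wild-type replicate 2 lie below 20%.

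Pericentric regions were shared between libraries more often than regions elsewhere on the arms. All 8 libraries called 231 of the 1698, or 13.6% (95% Wilson interval 12.1 to 15.3%). Elsewhere all 8 libraries called 355 of 7388 regions, or 4.81% (95% Wilson interval 4.34 to 5.32%). Over all arm regions the share was 6.45%. Calls in a single library made up 681 pericentric regions, or 40.1%, against 56.0% elsewhere and 53.1% over all arm regions. The share called by all 8 libraries was 22.4% in the X window, 16.6% in the 2L window, 10.6% in the 3R window and 10.5% in the 3L window. Wilson intervals cover counting error only, and neighbouring regions are not independent of each other.

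The regions seen once came largely from 1 library. Undamaged wild-type replicate 2, whose list is the longest, gave 326 of the 681, or 47.9%. The other 7 libraries gave 23 to 110 each. Of those 326 regions, 160 lay in the 3R window. The widest pericentric region of the study was also called in this library alone, at 3R 53848 to 63089, where it spanned 9242 bp with an authors' fold enrichment of 2.36. The fold enrichment is the pileup at a peak's summit over the caller's expected coverage there, it is the authors' own value, and it ranks peaks within a list only.

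**Figure D2:**
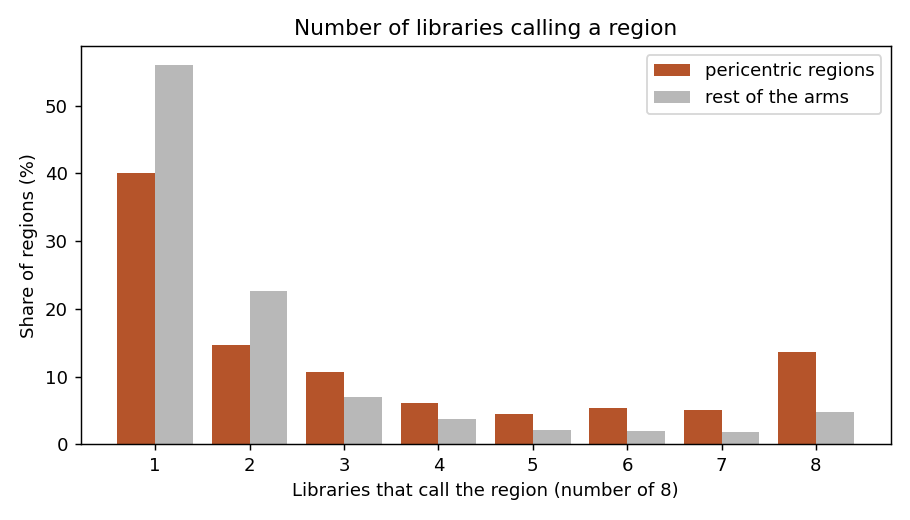
Share of regions, in percent, by the number of the 8 libraries that called them, for pericentric regions and for the rest of the arms. A larger share of pericentric regions than of the rest was called by all 8 libraries (13.6% against 4.81%) and a smaller share by 1 (40.1% against 56.0%).

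High signals were found at the same few regions in all 8 libraries, with or without the tag. A region of 787 bp at 3R 3169584 to 3170370 lies inside Pzl, which encodes a Piezo-like channel protein. Its fold was 28.9 and 22.5 in the undamaged wild type, 23.7 and 25.3 in the damaged wild type, 27.1 and 26.0 in undamaged Zelda-GFP, and 24.6 and 29.1 in damaged Zelda-GFP. It had the highest pericentric pileup over background in 7 of the 8 libraries. A region of 901 bp at 2L 23512796 to 23513696, in no annotated gene and the last on that arm, came next with folds of 19.6 to 24.4. It had the highest pileup over background in the remaining library, undamaged wild-type replicate 2. In that library the highest fold, 33.4, was instead at X 22433013 to 22433204, which no other library called.

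On X, a region of 1416 bp at 23455405 to 23456820 overlaps no annotated gene. Its fold was 10.1 and 7.96 in the undamaged wild type, 9.56 and 9.35 in the damaged wild type, 11.2 and 11.4 in undamaged Zelda-GFP, and 12.0 and 12.1 in damaged Zelda-GFP. A region of 1046 bp at X 23261603 to 23262648 overlaps the ribosomal RNA pseudogene 28SrRNA-Psi:CR41609. Its folds were 6.30 to 8.25 in the 4 wild-type libraries and 9.21 to 11.2 in the 4 Zelda-GFP libraries. These folds belong to separately called lists, so the order of the genotypes was not tested. Ribosomal RNA genes sit in long tandem arrays in the X heterochromatin. The X window of the gene table holds 17 ribosomal RNA, pre-ribosomal RNA and ribosomal RNA pseudogene entries, and 11 pericentric regions overlap them (a group chosen after its values were seen). All 8 libraries called 8 of those 11. Whether reads that map to several places were kept is not given in the sources used here, so the position of a peak within repeated DNA is uncertain.

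Similarity of the lists leaned towards genotype inside the windows, with overlapping ranges. It was measured by the Jaccard index, which divides the regions that both lists call by those that at least 1 of them calls. Each of the 8 libraries was most similar to a library of its own genotype over the pericentric regions. Over the rest of the arms this held for 6 of 8, since undamaged wild-type replicate 1 and undamaged Zelda-GFP replicate 2 were most similar to each other, at 0.457. The mean pericentric index was 0.522 for replicates, 0.479 for libraries of 1 genotype in different conditions, 0.435 for libraries of 1 condition in different genotypes and 0.416 for libraries that differ in both. Elsewhere the same means were 0.366, 0.250, 0.256 and 0.224. Over the pericentric regions, pairs of 1 genotype in different conditions ran from 0.336 to 0.573. Pairs of 1 condition in different genotypes ran from 0.323 to 0.513, so the ranges overlapped. The index also depends on the lengths of the lists. The damaged wild-type replicates had an index of 0.605 over the pericentric regions and 0.256 elsewhere, the widest gap among the replicate pairs. Damaged Zelda-GFP replicates had 0.577 and 0.527. These values share libraries between pairs and are given as a description.

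**Figure D3:**
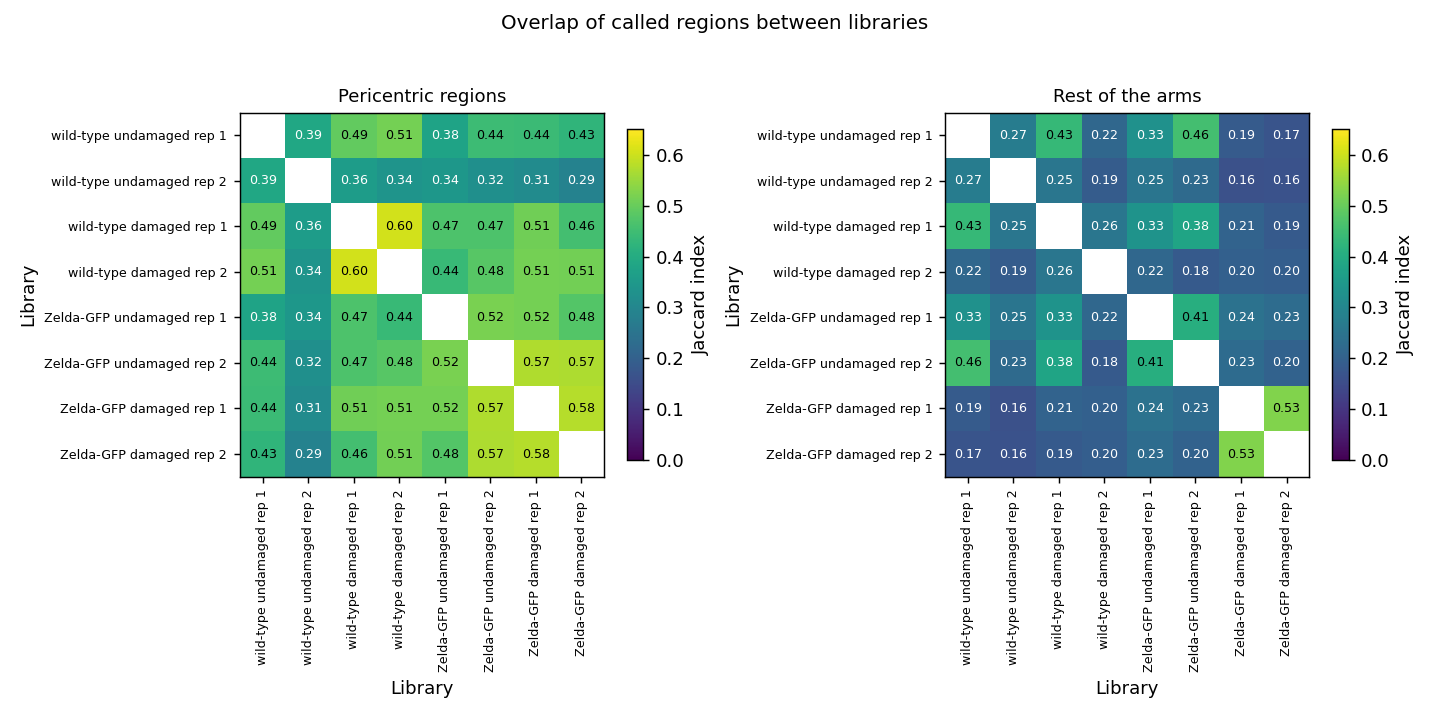
Jaccard index for each pair of libraries, over pericentric regions (left) and the rest of the arms (right), on 1 colour scale without units. Replicates average 0.522 on the left and 0.366 on the right, and on the left every library is nearest to one of its own genotype.

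Few pericentric regions depended on the tag after damage. Regions called in both damaged Zelda-GFP libraries and in neither damaged wild-type library numbered 42, or 2.47% of the pericentric regions (95% Wilson interval 1.84 to 3.33%). Over all arm regions 13.4% met the same rule, and elsewhere on the arms 1180 regions did, or 16.0% (95% Wilson interval 15.2 to 16.8%). Among the 424 pericentric regions that both damaged Zelda-GFP libraries called, 9.91% were tag-dependent, against 59.4% of 1987 elsewhere. The opposite pattern, both damaged wild-type libraries and neither damaged Zelda-GFP library, was met by 96 pericentric regions, or 5.65%, against 3.04% over all arm regions. Among regions that both damaged wild-type libraries called, it was met by 96 of 514 pericentric ones and 180 of 845 elsewhere. By that measure the pericentric share was not the higher. No test was run on these counts, since 2 libraries against 2 cannot reach 0.05. The count of 42 was 8 with lists of equal length, 71 with windows around summits, 70 without damaged wild-type replicate 1, 106 without damaged Zelda-GFP replicate 1 and 134 without damaged Zelda-GFP replicate 2. Leaving out a library of the rule makes the rule looser, so those counts can only stay or rise. These alternative counts are given without the share over all arm regions.

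Tag-dependent pericentric regions after damage were also low within their lists. Their median fold was 1.92 in each damaged Zelda-GFP library, with 1 of 42 at a fold of 3 or above in each. Elsewhere the median was 2.41 and 2.54, with 295 and 357 of 1180 at a fold of 3 or above. A single one of the 42 (2.38%) lay within 500 bp of an end of a protein-coding gene, against 534 of 1180 elsewhere. That is close to the 36 of 1698 (2.12%) among all pericentric regions. The libraries of these comparisons also set the rule for the 42, so the folds describe them only.

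The 7 pericentric regions called in both damaged Zelda-GFP libraries and in no other library stand against 10.6% of all arm regions, or 965. The highest in rank was at 3R 4174337 to 4175154 over CG12581, 818 bp wide and close to the 3R bound, with folds of 2.72 and 3.92. On X, 22437895 to 22438404 lies 5.82 kb from CG14621, with folds of 2.08 and 2.54. X 22996564 to 22996983 lies in the unit of stnA and stnB, the stoned genes of synaptic vesicle recycling, with folds of 2.05 and 2.00. X 22792320 to 22792810 lies in lncRNA:CR44997. 2L 22133853 to 22134370 lies in CG42748. The other 2 are at 3R 224337 to 224696 and at 3R 2548389 to 2548810, the latter near Pzl. The list was taken whole after its count of 7 was seen.

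Allowing calls in undamaged Zelda-GFP discs, 29 pericentric regions were called in both damaged Zelda-GFP libraries and in no wild-type library, against 12.3% of all arm regions. X 23440000 to 23440484 had folds of 3.08 and 2.58 after damage and 2.21 in undamaged Zelda-GFP replicate 2. 3R 1335122 to 1335411 lies in Myo81F, a myosin gene, and had folds of 2.59 and 2.43 after damage and 2.03 in undamaged Zelda-GFP replicate 1. Neither was called in a wild-type list, which says that no peak passed the caller's threshold there and not that coverage was absent.

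In undamaged discs the tag-dependent regions numbered 88, or 5.18% of the pericentric regions, against 3.02% over all arm regions. Among regions that both undamaged Zelda-GFP libraries called, the pericentric share was the lower, with 88 of 472 or 18.6% (95% Wilson interval 15.4 to 22.4%) against 186 of 786 or 23.7% elsewhere (20.8 to 26.8%). Undamaged wild-type libraries gave the mirror pattern at 104 pericentric regions, or 6.12%, against 1.96% over all arm regions. Among regions that both undamaged wild-type libraries called, that was 104 of 449 pericentric ones and 74 of 624 elsewhere. The count of 88 was 290 without undamaged Zelda-GFP replicate 2, 138 without undamaged wild-type replicate 1 and 135 without undamaged wild-type replicate 2, each under a looser rule. Both undamaged Zelda-GFP libraries, but none of the wild type, called 40 pericentric regions (1.71% of all arm regions met that rule). In 3R 2958654 to 2959468, inside Pzl, the fold was 18.5 in undamaged Zelda-GFP replicate 2 and 1.67 in replicate 1. The pileup over background was 46.8 and 1.70 there, so the replicates stood far apart at this region. Both undamaged Zelda-GFP libraries and no other library of the 8 called 15 pericentric regions, or 0.883%, against 0.616% over all arm regions. Both undamaged wild-type libraries alone called 41, or 2.41%, against 0.572%. The other 3 named by rank, 3R 119021 to 119755, 3R 518425 to 518971 and 3L 27790068 to 27791293, had folds of 2.16 to 2.58 in undamaged Zelda-GFP replicate 1 and 2.17 to 2.40 in replicate 2.

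Every Zelda-GFP library but no wild-type library called 11 pericentric regions, or 0.648%, against 0.682% over all arm regions. The region at 3R 119021 to 119755 ranked first, with folds of 2.56 and 2.40 without damage and 2.25 and 1.82 after it. The next in rank were 2L 23292690 to 23293413 with folds of 1.92 to 2.20, 3L 27608551 to 27609468, and 3R 3985966 to 3988308. None of these 4 overlaps a protein-coding gene.

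Every wild-type library but no Zelda-GFP library called 24 pericentric regions, or 1.41%, against 0.506% over all arm regions. Of the 24, 16 lay in the X window, 6 in the 3L window and 2 in the 3R window. The highest in rank were all on X. X 22004900 to 22005697 had folds of 2.37, 3.16, 2.91 and 2.79. X 22118098 to 22119134 had folds of 2.88, 2.48, 2.52 and 2.78. X 22010586 to 22011464 had folds of 3.14, 2.51, 2.33 and 2.43. X 21775898 to 21776922 lies inside lncRNA:flam, the flamenco piRNA cluster that silences gypsy-family elements in the ovary, and had folds of 2.92, 2.87, 2.13 and 2.99. These 4 regions had no peak in any of the Zelda-GFP lists.

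**Figure D4:**
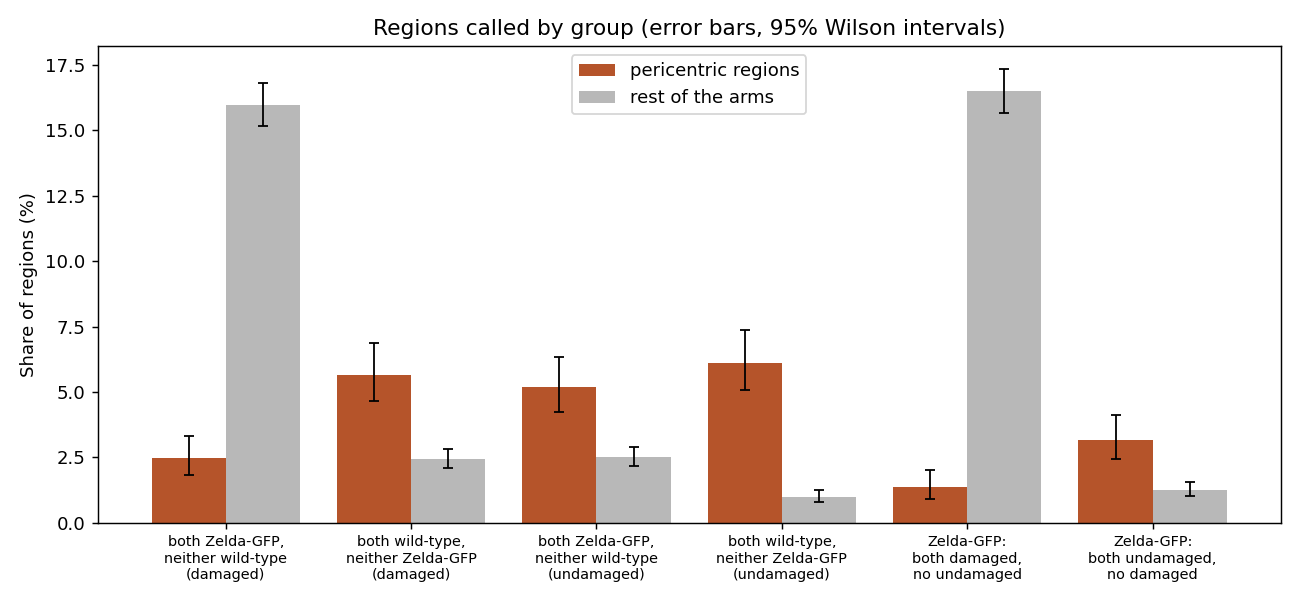
Share of regions, in percent, that met each of 6 call patterns, for pericentric regions and the rest of the arms; bars start at 0 and error bars are 95% Wilson intervals for counting error. The patterns for damaged Zelda-GFP discs are met by 16.0% and 16.5% of regions elsewhere and by 2.47% and 1.35% of pericentric regions.

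Few pericentric regions were called in Zelda-GFP discs after damage alone. Both damaged and neither undamaged Zelda-GFP library called 23 pericentric regions, or 1.35%, against 13.7% over all arm regions. The reverse, both undamaged and neither damaged, was met by 54, or 3.18%, against 1.62%. In wild type, both damaged and neither undamaged library called 78 pericentric regions, or 4.59%, against 2.85%, and the reverse 66, or 3.89%, against 1.21%. Both damaged wild-type libraries called 30.3% of pericentric regions and 11.4% elsewhere, which raises such pericentric shares. Of those regions, 78 of 514 pericentric ones were in neither undamaged library, the lower share, against 181 of 845 elsewhere. Of regions called in both undamaged libraries, neither damaged library called 54 of 472 pericentric ones against 93 of 786 elsewhere in Zelda-GFP. In wild type it was 66 of 449 against 44 of 624. These counts share libraries with the tag comparisons above. All 4 damaged and no undamaged library called 3 pericentric regions, or 0.177%, against 0.275% over all arm regions. They lie at 3L 25224506 to 25225653, at 3L 26007394 to 26008178 in l(3)80Fg, and at X 21642060 to 21643163 in lncRNA:flam. All 4 undamaged and no damaged library called 1, against 0.0991% over all arm regions.

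Both damaged wild-type libraries and no other library called 14 pericentric regions, against 0.913% of all arm regions. The highest in rank was 3R 3741072 to 3741485, in Tim17b, which encodes a subunit of the mitochondrial import machinery, with folds of 2.33 and 1.70. 3R 3549428 to 3549748 lies in Parp1, which encodes a poly(ADP-ribose) polymerase, with folds of 1.82 and 1.83. The others named by rank, 3L 27250313 to 27250951 and 3R 454179 to 454630, overlap no annotated gene.

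The X window was the 1 window in which the genotypes did not overlap in the number of regions called. Wild-type libraries called 206 and 209 X regions without damage and 180 and 184 after it. Zelda-GFP libraries called 161 and 143 without damage and 166 and 149 after it. Every Zelda-GFP library was therefore below every wild-type library. The means were 154.75 ± 10.6 and 194.75 ± 14.9 (SD, n = 4 each), a difference of -40 (exact two-sided permutation test, p = 0.0286, the smallest it can give). Adjusted over 8 window tests, which were added after the values were seen, p was 0.229. The order was not the same on the rest of X, where Zelda-GFP libraries called 172, 144, 397 and 464 X regions and wild-type libraries 143, 129, 183 and 210. In the other windows the difference between genotypes was -1.25 on 2L, -24 on 3L and -42.25 on 3R, all within the spread (exact permutation p = 1, 0.657 and 0.514).

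The separation on X lay in the outer 1000 kb of the window. Counted in stretches of 500 kb from the bound, the first stretch gave 55, 47, 52 and 46 regions in the wild-type libraries and 42, 33, 41 and 34 in the Zelda-GFP libraries. The second gave 70, 67, 50 and 55 in wild type and 23, 33, 37 and 27 in Zelda-GFP, with means of 60.5 ± 9.54 and 30 ± 6.22 (SD, n = 4 each). Of the 16 X regions with calls in every wild-type library and none in Zelda-GFP, 5 lay in the first stretch and 11 in the second. Of 29 such stretches in the 4 windows, these 2 had all Zelda-GFP libraries below all wild-type libraries, and 0 had the reverse. Cut at fixed 500 kb steps over the arms, 2 of 272 stretches (0.735%) had Zelda-GFP below and 4 (1.47%) had it above. The 272 take in the windows and the X bound lies on such a step, so those 2 can be the X stretches just described. At 1000 to 1500 kb from the bound the genotypes already overlapped, with 10, 7, 10 and 10 regions in wild type and 9, 6, 8 and 8 in Zelda-GFP. Nearer the centromere, at 1500 to 2000 kb from the bound, they overlapped too, with 61, 76, 62 and 66 regions in wild type and 78, 63, 72 and 71 in Zelda-GFP. That stretch held 107 regions, of which all 8 libraries called 46. Whether the tagged stock has the w1118 background is not given in the sources used here, so the tag and the stock it came in cannot be told apart. In the 3R window, undamaged wild-type replicate 2 stood apart at 3500 to 4000 kb from the bound, with 81 regions against 28 to 42 in the other 7 libraries.

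**Figure D5:**
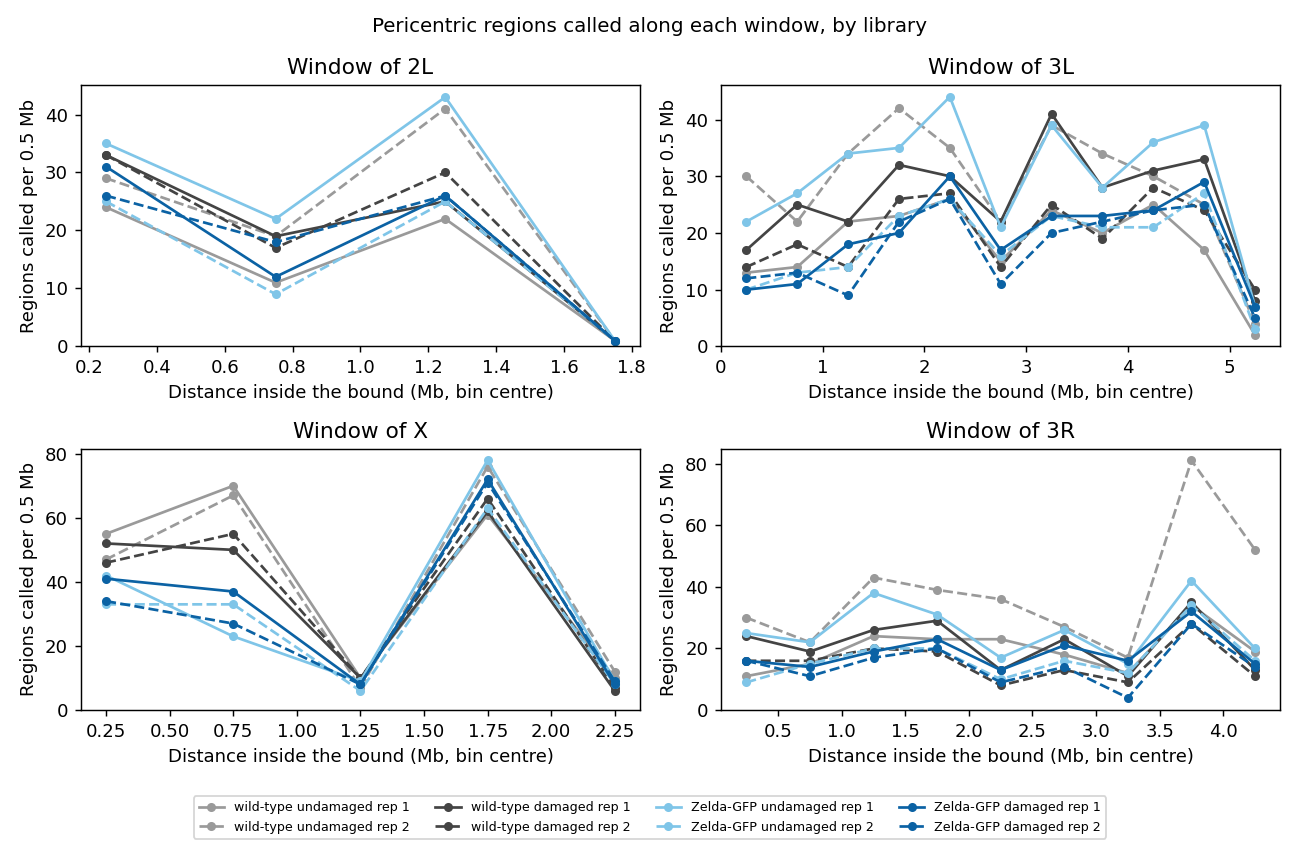
Number of pericentric regions called in each 500 kb stretch of the 4 windows, against the distance of the stretch's centre from the window's outer bound (Mb), by library; the last stretch of each window is shorter than 500 kb. In the X window the 4 Zelda-GFP lines (23 to 37) lie below the 4 wild-type lines (50 to 70) at 0.75 Mb and overlap them from the next stretch on.

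The windows hold 152 protein-coding genes in the RefSeq gene table, and 70 of them had a pericentric region in the gene or within 2 kb. Genes with a region had a median length of 10.8 kb and those without one 1.81 kb. Pericentric regions lay in a protein-coding gene in 29.9% of cases, against 74.9% elsewhere on the arms. They lay within 500 bp of an end of such a gene in 36 of 1698 cases, or 2.12% (95% Wilson interval 1.54 to 2.92%), against 45.4% elsewhere. None of the 231 regions called by all 8 libraries lay that close to a gene end, which allows a share of up to 1.64% by the Wilson interval. Damaged Zelda-GFP replicate 2 had the highest share of regions near gene ends, 23 of 542 or 4.24%, while the other 7 libraries had 0.362 to 1.60%. The gene table gives no strand, so starts and ends of genes were not told apart.

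The longest heterochromatic genes carried the most regions. Of 11 listed genes classically assigned to heterochromatin that lie in the windows, 9 had a region. Myo81F, 1965.86 kb long, had 187 regions, 23 of them called by all 8 libraries. Its wild-type libraries called 72, 115, 73 and 49 and its Zelda-GFP libraries 92, 59, 71 and 46. Pzl, 709 kb long, had 81 regions, 12 of them called by all 8, with 29, 48, 32 and 23 in wild type and 43, 24, 25 and 20 in Zelda-GFP. The ranges overlapped in both genes. Together these genes held 268 regions, 49.8% of those in the 3R window. Counted per Mb, with 2 kb on each side of the gene, Myo81F had 94.9 regions and Pzl 113.5. The whole 3R window had 128.1 per Mb, so neither gene was denser than its window.

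Snap25, which encodes a SNARE protein of vesicle fusion, had 37 regions within 2 kb, of which 1 was called by all 8 libraries. The wild-type libraries called 16, 24, 15 and 10 of them and the Zelda-GFP libraries 20, 6, 9 and 3. The fewest were in damaged Zelda-GFP replicate 2, and the genotypes overlapped. Dbp80, which encodes a DEAD-box RNA helicase, had 17 regions, with 2 to 5 per library. The short genes of this list had few. RpL5, which encodes a ribosomal protein, had 3, all in wild type at folds of 1.72 to 1.74. cta, which encodes a G protein alpha subunit used in gastrulation, had 1 at 2L 22981807 to 22982618, with folds of 1.91 in undamaged Zelda-GFP replicate 1 and 2.54 in damaged Zelda-GFP replicate 2. lt, which encodes a vesicle-trafficking protein, had 1 in damaged Zelda-GFP replicate 2 at a fold of 1.64. Cht10, listed under its older name Cht3, and su(f), which acts in messenger RNA 3′ end formation, had 0.

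Among 6 listed chromatin and transcription genes, vtd held a strong region in every library. vtd encodes the Rad21 subunit of cohesin. Its region at 3L 27137896 to 27139774 had folds of 5.05 and 8.30 in the undamaged wild type, 5.07 and 5.21 in the damaged wild type, 3.02 and 4.02 in undamaged Zelda-GFP, and 3.52 and 4.11 in damaged Zelda-GFP. Parp1 had 16 regions, 1 of them called by all 8 libraries, with 5 to 7 in wild type and 3 to 7 in Zelda-GFP. Set1, a histone H3 lysine 4 methyltransferase gene, and its neighbour MED21, a Mediator subunit gene, shared 1 region at 3L 25115198 to 25115883. It was called in damaged wild-type replicate 2 at a fold of 2.09 and in damaged Zelda-GFP replicate 2 at 2.51. scro, which encodes an NK-type homeodomain protein, and DIP1, which encodes a double-stranded RNA-binding protein, had 1 region each, both in a single library.

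The ecdysone synthesis genes nvd and spok lie in the windows and had 4 regions each. nvd encodes an oxygenase that acts on cholesterol, and each library called 1 to 3 of its regions. The most widely called, 3L 24369314 to 24371690, was in 7 libraries at folds of 1.52 to 2.11. spok encodes a cytochrome P450 of the same pathway. Its 4 regions were called by undamaged wild-type replicate 2, and 1 of them also by damaged wild-type replicate 1. None was called in a Zelda-GFP library.

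Of the small RNA genes, lncRNA:flam was the densest. It had 54 regions over 158.8 kb and the 2 kb on each side, or 332 per Mb, against 170.7 per Mb in the whole X window. The wild-type libraries called 23, 17, 23 and 24 and the Zelda-GFP libraries 22, 16, 21 and 19, so the genotypes overlapped. All 8 libraries called 2 of the 54, and 48.1% were seen in a single library. AGO3, which encodes a PIWI-family protein of the piRNA pathway, had 15 regions, with 3 to 8 per library and none called by all 8. Of the 21 listed genes in the windows, 5 had a region that was tag-dependent after damage, with stnA and stnB sharing 1 such region, and 6 had one that was tag-dependent without damage. Of all 152 protein-coding genes in the windows, 8 (5.26%) and 10 (6.58%) had one. The listed genes include the longest of the windows, which hold the most regions, so the counts are not set against each other. The listed genes nrm, FRG1 and Su(var)3-3 lie wholly or partly outside the windows and were not counted.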

How the data were processed

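The authors deposited 1 narrowPeak list per library, on build dm6. Per the submitters' processing notes, the tools included bcl2fastq 2.20, Bowtie2, SAMtools, Picard, deepTools and MACS2, with no order or settings. Whether a control library entered peak calling is not given in the sources used here. The deposited columns are a fold ratio, the −log10 p-value and −log10 q-value, and a score that was used only to check the layout. The smallest deposited −log10 q-value was 1.32. The authors' fold and −log10 p-value together fix a Poisson pileup and its expected coverage. The pileup came out whole, within 0.05, for 99.9 to 100% of peaks in each list. Read depth is unknown.

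Regions were merged at 1 bp, and counts, Jaccard indices and shares were computed in Python 3.11.15 with pandas 2.3.3 and scipy 1.17.1, on code tested on simulated data. Group means were compared by exact two-sided permutation tests over libraries (4 against 4, 70 labelings, smallest p 0.0286) with Benjamini-Hochberg adjustment. The labels do not say that replicates came from separate animals, so p-values measure the spread between libraries. Intervals are 95% Wilson intervals for counting error only.

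In each call pattern the text names the 4 members that rank highest by fold within the lists, on average, plus the highest pileup in each library, the widest member and the listed genes. Members and lists were chosen with earlier results of these data known. Gene positions come from the RefSeq Release 6 table. Alternatives were a stricter q-value, summit windows, equal list lengths, shifted bounds, base pairs, 50% cover, a replicate block and each library left out. Promoter sequences and motifs were not analysed here.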

Additional observations from a re-analysis of the deposited data

Results flagged for a closer look

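In 1 of 16 groups examined, a library stood apart from the rest of its group. Among the 4 damaged libraries, the share of arm regions that were pericentric was 35.7% in damaged wild-type replicate 1, while the others had 15.2 to 18.4%. Its gap to the nearest library exceeded the 95% critical value of Dixon's test for 4 samples. Chance alone marks about 1 group in 20. That library called 740 pericentric regions, within the range of the other libraries, and 1331 regions elsewhere, below the 2741 to 3016 of the other damaged libraries. Its background coverage, 52.3 fragments per base, was the highest of the 8. The part of coverage in the share was not tested.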

How the results depend on the processing

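Alternatives were run for the differences in pericentric share and number by genotype and by damage, and for both counts of tag-dependent regions. None of these differences changed direction. Leaving out each library in turn, the difference in pericentric share between genotypes ran from -11.1 to -2.82 percentage points, and that between damaged and undamaged discs from -18.9 to -12.0. Without damaged wild-type replicate 1 the latter was -18.9, with an exact permutation p of 0.0286 before adjustment. With any other single library left out, the p of that test was 0.0857 to 0.114. The difference in the number of pericentric regions ran from -172 to -34.1 between genotypes and from -182 to -44.6 between conditions. In the X window alone, added after the data were seen, the difference between genotypes was -40 (exact permutation p = 0.0286). Tag-dependent regions after damage numbered 42 in the main count, 71 with summit windows, 8 with lists cut to 1698 peaks each, and 42 to 134 with a library left out. Without damage they numbered 88 to 290 with a library left out. Leaving out a library of either rule makes it looser, so these counts can only stay or rise. With the replicate number as a block, sign flips gave p = 0.375 for the share by genotype (-6.38), 0.125 for the share by damage (-14.3), 0.5 for the number by genotype (-107.5) and 0.375 for the number by damage (-116.5) (exact tests). The smallest p that these sign flips can give is 0.125. They could not reach 0.05, so they cannot decide whether a call holds. Correlations of same-numbered libraries' deviations ran from -0.00262 to 0.0751 and showed no clear pairing by number. With 2 libraries per group they cannot tell whether a batch was shared. Lists of peaks hold no read totals, so a region without a peak cannot be given an upper limit.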

Other observations

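Expected coverage was raised more often at pericentric peaks. The caller's expected coverage exceeded 1.5 times the library's background at 17.9 to 28.2% of pericentric peaks and at 5.90 to 21.0% of peaks elsewhere on the arms, and was the higher of the pair in 8 of 8 libraries. The median fold of pericentric peaks was higher than elsewhere in 6 libraries and lower in both damaged Zelda-GFP libraries, at 2.00 against 2.13 and 2.02 against 2.13. A fold divides by that expected coverage.

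Pileup over 20 times background was reached in at least 1 library by 22 of 1698 pericentric regions, against 18 of 7388 regions (0.244%) elsewhere on the arms and 0.440% of all arm regions. Of the 22, 13 were on X. All 8 libraries called 16 of the 22, and 4 were called in 1 library alone. In undamaged wild-type replicate 2, X 22433013 to 22433204 reached 74.5 times background with no peak in the other 7 lists. In undamaged Zelda-GFP replicate 2, 3L 24464225 to 24464709 reached 35.4 times, X 21851263 to 21851650 reached 25.8 times, and 3L 25902804 to 25903301, in l(3)80Fg, reached 23.5 times. The median over the regions on ribosomal RNA entries was 13.2 and 13.3 times background in the undamaged wild type, 8.76 and 10.3 in the damaged wild type, 12.4 and 15.7 in undamaged Zelda-GFP, and 18.6 and 15.5 in damaged Zelda-GFP. The groups were not tested, since the regions were picked after their values were seen.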
